A study of Homo sapiens with 18 samples.

Results

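The 8 mucin genes MUC1, MUC4, MUC13, MUC15, MUC16, MUC20, MUC5AC and MUC5B were followed in lung cancer cell lines with and without knockdown of SYK, a cytoplasmic tyrosine kinase. They were taken by gene symbol from tables of 58302 genes, and they were selected on their values in these cells, because MUC4 had been seen lower in shSYK cells of all 3 lines. The differences between shSYK and nc cells in these 8 genes are therefore a description, and no p is given for them. The study asked how SYK bears on the epithelial state of lung cancer cells and on their sensitivity to c-Met and EGFR inhibitors. In public cell line data it found MUC1, with SYK, THBD and RAPGEF5, in epithelial signatures and among genes associated with sensitivity to kinase inhibitors. Cells of EBC-1, PC-9 and HCC827 were made to stably express a lentiviral shRNA to SYK, called shSYK, or the matching negative control, called nc, and each of the 6 groups has 3 RNA-seq libraries. EBC-1 carries a MET amplification, and PC-9 and HCC827 each carry an EGFR exon 19 deletion. A single shRNA was used for shSYK in every line, so an effect of the hairpin and an effect of SYK cannot be told apart. The labels do not say whether the libraries of a group came from separate cultures, so the spread between them may be technical.

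Mucins are large glycoproteins whose serine- and threonine-rich repeats carry dense O-linked sugar chains. MUC1, MUC4, MUC13, MUC15, MUC16 and MUC20 are membrane mucins, which coat the apical surface of epithelial cells and in part signal through receptor tyrosine kinases. MUC5AC and MUC5B are secreted, gel-forming mucins that polymerize into airway mucus, MUC5AC mostly from surface goblet cells and MUC5B mostly from submucosal glands.

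Levels are given in FPKM, the fragments on a gene per kilobase of its length, scaled to the size of the library. FPKM corrects for gene length, so levels of different genes can be set side by side. The 18 libraries held between 7920099 and 15729103 reads on genes, and 3 reads in a library were taken as the floor of detection. SYK had an FPKM of 15.1, 13.1 and 14.4 in the nc libraries of EBC-1 and 7.63, 7.25 and 7.41 in the shSYK libraries. In PC-9 the SYK level was 7.31, 6.04 and 6.17 against 2.28, 1.64 and 2.34. The HCC827 libraries had 9.05, 8.45 and 9.74 in nc against 2.46, 3.16 and 3.36 in shSYK cells. SYK was thus lower in every shSYK library, to 52.3% of the nc mean in EBC-1 (limma adjusted p = 0.000271), 32.1% in PC-9 (limma adjusted p = 0.00733) and 32.9% in HCC827 (limma adjusted p = 0.000197). The PC-9 call was lost without shSYK library 1 (log2 difference -1.33, limma adjusted p = 0.0648). All 5 markers of lung epithelium were detected in each group, among them the keratins KRT8 and KRT18, with a summed FPKM between 1137 and 4683. Of 6 squamous markers, the EBC-1 nc libraries had only SOX2 above the floor, and TP63, KRT5, KRT6A, KRT14 and DSG3 had at most 3 reads, although the study lists EBC-1 as a squamous carcinoma line. Of 6 glandular lung markers, HCC827 had a summed level of 141 to 144 in nc and 85.7 to 95.3 in shSYK cells, most of it from NAPSA and NKX2-1. The squamous list stood at 18.4 to 24.8 in PC-9 nc and at 139 to 142 in PC-9 shSYK cells, nearly all of it KRT5, whose mean was 20.7 in nc and 138 in shSYK cells. In HCC827 the same list was lower in shSYK cells, at 30.4 to 39.6 in nc and 8.71 to 14.4 in shSYK cells, where SOX2 had means of 22.3 and 8.63 and KRT6A 12.2 and 3.08. In EBC-1 it was 9.32 to 10.5 in nc and 5.48 to 8.92 in shSYK cells. Whether these shifts in marker genes had a part in the mucin levels was not tested.

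The repeat units are shown for the 3 mucins that were the most abundant member in one of the lines, because repeats fill much of a mucin's coding sequence and reads from a repeat fit several places. Each is the most frequent unit in the longest coding transcript of GENCODE release 44, read from the hg38 genome in the direction of the gene. The 48-base unit of MUC4 lies in coding exon 2 at chr3:195788034-195788081 on the minus strand, and its exact letters occur 14 times in the transcript. The 57-base unit of MUC20 lies in coding exon 2 at chr3:195725165-195725221 on the plus strand and occurs 10 times. The 87-base unit of MUC5B lies in coding exon 31 at chr11:1243189-1243275 on the plus strand and occurs 5 times.
MUC4 unit: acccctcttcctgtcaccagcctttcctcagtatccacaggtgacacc
MUC20 unit: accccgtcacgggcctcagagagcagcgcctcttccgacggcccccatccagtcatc
MUC5B unit: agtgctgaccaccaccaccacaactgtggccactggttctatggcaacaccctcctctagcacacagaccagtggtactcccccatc
Of the 50-base words in these transcripts, 28.9% occurred more than once within the transcript for MUC4, 29.2% for MUC5B, 21.4% for MUC5AC, 10.99% for MUC20 and 1.07% for MUC16. No word was repeated in the longest coding transcripts of MUC1, MUC13 and MUC15. Other transcripts and alleles were not searched, so this does not show that these genes lack repeats. How reads that fit several places were counted is not given in the sources used here, so the absolute FPKM of the repeat-rich mucins is less certain than a ratio of the same gene between libraries. MUC20 also shares sequence with the pseudogene MUC20P1, and 26.2% of the 50-base words of its longest transcript occur in MUC20P1, as 64.5% of those of MUC20P1 occur in MUC20. The MUC20 level is therefore uncertain, since reads could be split between both genes.

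RefSeq promoter windows, from 250 bases before to 50 bases after the transcript start in GRCh38.p14, were held for MUC1, MUC4, MUC13 and MUC16 and not for MUC5AC, MUC5B, MUC15 and MUC20. MUC4, MUC1 and MUC13 are printed in the direction of the gene because their levels were lower in shSYK cells of HCC827, while their windows differ in the letters of 3 common motifs. Capitals mark a GC box (GGGCGG, the kind of site that SP1 binds), an AP-1 site (TGAGTCA, bound by JUN and FOS family proteins such as FOSL1) or a TATA box (TATAAA), each searched on both strands, so that a GC box on the other strand reads CCGCCC.
MUC4 promoter, chr3:195811880-195812179, minus strand: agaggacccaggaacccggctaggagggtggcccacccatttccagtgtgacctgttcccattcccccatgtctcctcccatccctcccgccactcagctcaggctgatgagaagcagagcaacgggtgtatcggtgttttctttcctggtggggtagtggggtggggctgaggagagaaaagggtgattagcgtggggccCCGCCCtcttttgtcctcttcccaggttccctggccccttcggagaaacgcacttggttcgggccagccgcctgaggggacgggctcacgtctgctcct
MUC1 promoter, chr1:155192866-155193165, minus strand: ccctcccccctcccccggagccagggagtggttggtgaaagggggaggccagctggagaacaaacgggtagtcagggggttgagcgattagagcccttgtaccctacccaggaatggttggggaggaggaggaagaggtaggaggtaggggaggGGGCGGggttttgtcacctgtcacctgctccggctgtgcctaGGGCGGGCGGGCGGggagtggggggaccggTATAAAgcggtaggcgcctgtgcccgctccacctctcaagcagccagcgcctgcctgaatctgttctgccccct
MUC13 promoter, chr3:124934702-124935001, minus strand: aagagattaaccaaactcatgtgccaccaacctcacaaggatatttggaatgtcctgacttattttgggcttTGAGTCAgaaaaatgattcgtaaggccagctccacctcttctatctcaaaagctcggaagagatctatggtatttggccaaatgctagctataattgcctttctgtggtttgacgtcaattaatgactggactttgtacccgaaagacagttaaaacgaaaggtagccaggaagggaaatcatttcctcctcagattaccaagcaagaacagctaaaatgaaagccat
The MUC4 window held 1 GC box, and the MUC1 window held 4 GC boxes, 3 of them overlapping, and 1 TATA box. The MUC13 window held 1 AP-1 site and neither of the other motifs. Of 35116 promoter windows, 45.0% held a GC box, 4.95% an AP-1 site and 11.5% a TATA box. A match is a run of letters and not a bound site.

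In nc cells, each line had a different leading mucin. EBC-1 was dominated by MUC4, with an FPKM of 33.5 ± 5.55 (SD, n = 3), PC-9 by MUC20 with 14.4 ± 2.56, and HCC827 by MUC5B with 52.9 ± 2.97. These made up 91.6% ± 1.34, 54.5% ± 9.29 and 61.4% ± 0.683 of the summed FPKM of the 8 genes. The order in EBC-1 was MUC4, MUC20, MUC16, MUC1 and MUC5B, and the ranges of the 3 libraries did not overlap between any neighbours in it. In PC-9 the order was MUC20, MUC16, MUC4, MUC1 and MUC5B, and only MUC4 and MUC1 had overlapping ranges. HCC827 had the order MUC5B, MUC1, MUC16, MUC4, MUC13, MUC20 and MUC5AC, with overlapping ranges for MUC4 and MUC13. These orders and shares depend on the gene model lengths, and a shorter length for MUC1 would raise its level. All other members had at most 3 reads in every nc library.

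Levels of the nc cells were compared between lines in 1 limma fit of the 9 nc libraries on log2(FPKM + 1), over the 12702 genes averaging 1 FPKM or more, with Benjamini-Hochberg adjustment over these genes and a threshold of 0.05. MUC15 and MUC5AC did not reach that mean, and of the other 6 members 5 passed the threshold in each of the 3 comparisons. MUC13 and MUC5B reached the mean only through HCC827, where they were high. Their differences in each of the 3 comparisons, which these counts include, are therefore a description. MUC5B passed between EBC-1 and PC-9 although its means there were 0.0520 and 0.616 FPKM. The count between PC-9 and HCC827 was 3 of 5 tested when any HCC827 nc library was left out, and with a library left out the count between EBC-1 and HCC827 was 4 to 6. The lines differed widely in general, since 70.3% of the genes tested passed between EBC-1 and PC-9, 69.4% between EBC-1 and HCC827 and 64.6% between PC-9 and HCC827. MUC4 was higher in EBC-1 than in PC-9 by a log2 difference of 3.15 (standard error 0.13, limma adjusted p = 3.62e-08) and than in HCC827 by 2.78 (limma adjusted p = 9.12e-08). MUC5B was higher in HCC827, with a difference of -5.68 for EBC-1 minus HCC827 (standard error 0.082) and of -5.06 for PC-9 minus HCC827. MUC1, whose mean FPKM was 0.471 for EBC-1, 2.62 for PC-9 and 14.9 for HCC827, differed in every pair, the smallest difference being -1.30 between EBC-1 and PC-9 (limma adjusted p = 5.59e-07). MUC13 was read at 3.41 ± 0.328 FPKM in HCC827, against at most 1 read in any nc library of the other two lines.

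In 3 of the comparisons, levels of a member detected in both lines did not pass or passed by little. MUC13 differed by -0.016 between EBC-1 and PC-9. It had at most 1 read per nc library in both lines, too few to show a difference, so nothing is read from this. MUC20 had a mean of 1.83 in EBC-1 and 2.36 in HCC827, a difference of -0.25 (standard error 0.12, limma adjusted p = 0.0813), with ranges that did not overlap. It passed in 4 of 18 alternatives, which were a pseudocount of 0.1, quantile normalization, removal of length and GC trends and PC-9 nc library 1 left out, and the adjusted p ranged from 0.00203 to 0.805 over the alternatives. MUC16 had 5.90 in PC-9 and 7.56 in HCC827, a difference of -0.35 (standard error 0.24, limma adjusted p = 0.220), and the ranges overlapped. Without PC-9 nc library 2 the MUC16 difference was -0.62 (limma adjusted p = 0.0123). MUC4 had 2.88 in PC-9 and 3.997 in HCC827, a difference of -0.37 (standard error 0.13, limma adjusted p = 0.0333), and this call was lost in 7 of 18 alternatives, where the adjusted p reached 0.261, among them PC-9 nc library 1 or 3 or any HCC827 nc library left out. Each line came from a table of its own, so the cell line and any batch of preparation cannot be told apart.

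**Figure D1:**
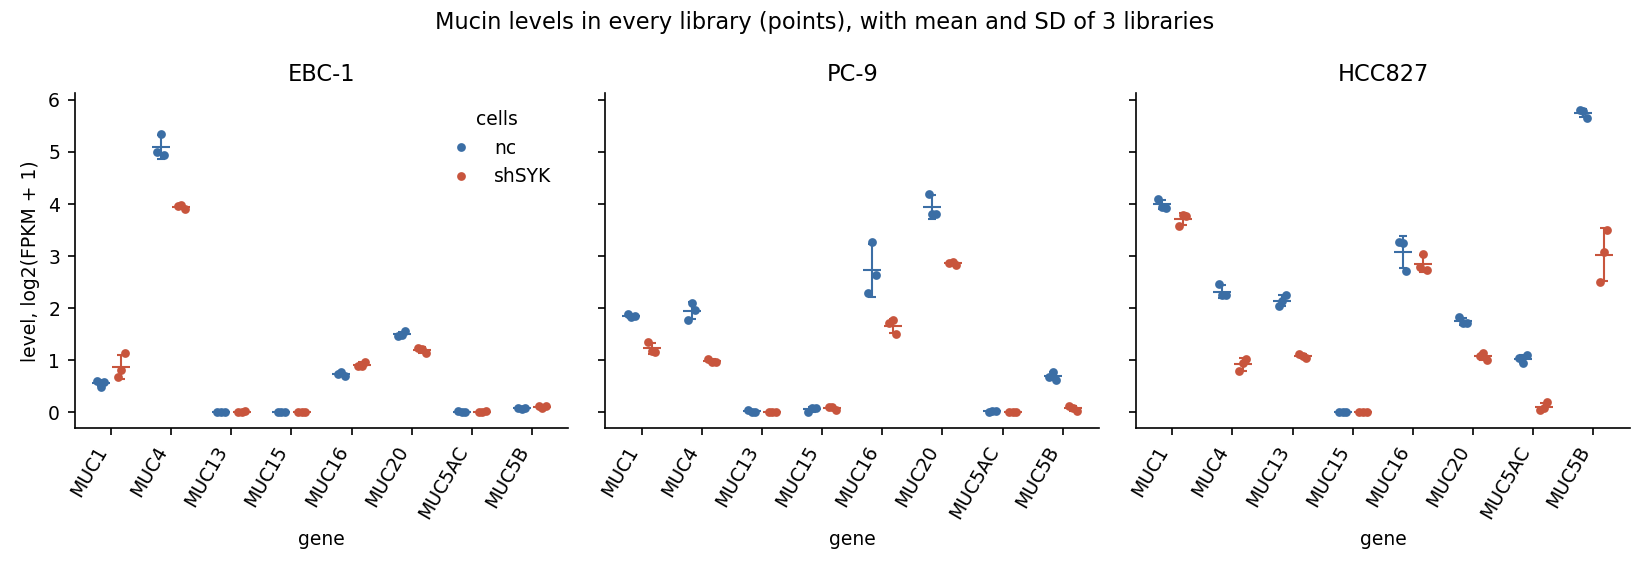
Levels of the 8 mucins in EBC-1, PC-9 and HCC827 on a log2(FPKM + 1) axis, with 1 point per library, a dash for the mean and bars for the SD of 3 libraries. The leading mucin of nc cells is MUC4 for EBC-1, MUC20 for PC-9 and MUC5B for HCC827, and the MUC4 points of shSYK cells lie below those of nc cells in each line.

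MUC4 (ENSG00000145113, chromosome 3, positions 195746765 to 195812277, minus strand, hg38) encodes a membrane mucin with EGF-like domains that binds the receptor ERBB2. Its FPKM in EBC-1 was 30.9, 39.9 and 29.8 in the nc libraries and 14.5, 14.7 and 13.9 in the shSYK libraries. PC-9 had 2.43, 3.30 and 2.91 in nc and 1.04, 0.954 and 0.956 in shSYK cells. HCC827 had 4.48, 3.78 and 3.73 in nc and 0.723, 0.930 and 1.02 in shSYK cells. Every shSYK library lay below every nc library in each of the 3 lines. The shSYK mean was 43.0% of the nc mean for EBC-1, 34.1% for PC-9 and 22.3% for HCC827. On the log2(FPKM + 1) scale, which understates changes at low levels, the differences were -1.15 (standard error 0.11), -0.96 (0.12) and -1.40 (0.10). The values rest on 3677 to 10748 reads per library for EBC-1, 207 to 818 for PC-9 and 154 to 947 for HCC827. In such bulk samples, fewer cells that express MUC4 and less MUC4 RNA per cell cannot be told apart.

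MUC20 (ENSG00000176945, chromosome 3, positions 195720882 to 195741123, plus strand) lies beside MUC4 and encodes a short membrane mucin known to bind the receptor MET. The nc libraries of PC-9, where it was most abundant, had 17.4, 12.9 and 13.0 FPKM, and the shSYK libraries had 6.24, 6.41 and 6.14. EBC-1 had 1.74, 1.81 and 1.94 in nc against 1.34, 1.33 and 1.19, and HCC827 had 2.54, 2.26 and 2.27 against 1.11, 1.20 and 1.01. The groups did not overlap in any line, and the shSYK mean was 70.4% of the nc mean for EBC-1, 43.4% for PC-9 and 46.9% for HCC827. The log2 differences were -0.31 (standard error 0.093), -1.07 (0.13) and -0.67 (0.088). For the pseudogene MUC20P1, the EBC-1 mean was 2.01 ± 0.473 in nc and 1.17 ± 0.0434 in shSYK cells, and 4.30 ± 1.498 and 1.56 ± 0.434 in PC-9, on 22 to 83 reads per library. In HCC827 the MUC20P1 groups overlapped, with means of 0.964 in nc and 0.882 in shSYK cells.

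Within 100 kb of MUC4, 5 more genes had a mean FPKM of at least 1 in a line and could be tested there. TNK2, which encodes the tyrosine kinase ACK1, fell in EBC-1 from 19.7 ± 0.852 to 13.1 ± 1.48 (log2 difference -0.56, limma adjusted p = 0.00274). The TNK2 difference was -0.07 in PC-9 (limma adjusted p = 0.907) and 0.22 in HCC827 (limma adjusted p = 0.0689). LINC01983, a long noncoding RNA between MUC4 and TNK2, was tested in PC-9 only, where it fell from 3.49 ± 0.773 to 0.721 ± 0.213 (log2 difference -1.38, limma adjusted p = 0.0130) on 6 to 48 reads per library. LINC00969 was near 1 FPKM in EBC-1 and PC-9, with differences of -0.02 and -0.08. MIR570, a gene of 97 bases inside LINC00969 with 6 to 35 reads per library, rose in EBC-1 by 1.03 (limma adjusted p = 0.00335). The MIR570 difference was 0.018 in PC-9 (limma adjusted p = 0.993) and 0.18 in HCC827 (limma adjusted p = 0.757). TNK2-AS1, antisense to TNK2, differed by -0.25 in EBC-1 (limma adjusted p = 0.139). Besides MUC20, the neighbours that fell were therefore TNK2 in EBC-1 and LINC01983 in PC-9.

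**Figure D2:**
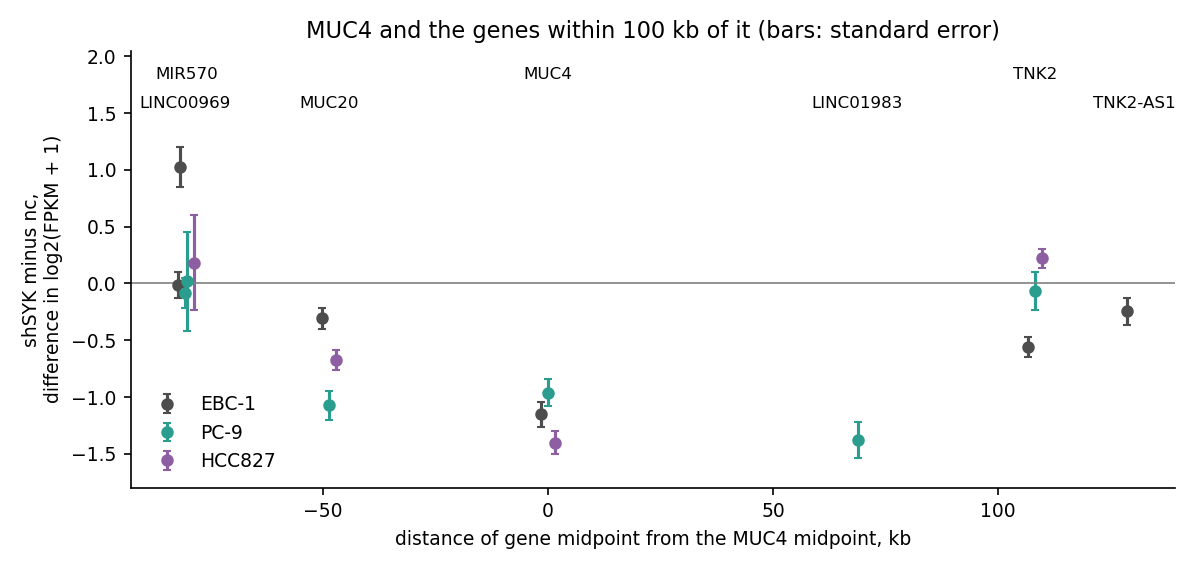
Difference between shSYK and nc cells in log2(FPKM + 1) for MUC4 and the genes within 100 kb of it, against the distance of each gene's midpoint from that of MUC4 in kb, with 1 point per cell line where the gene was tested and bars for the standard error. MUC4 and MUC20 lie below 0 in the 3 lines, and TNK2 lies at -0.56 in EBC-1 and at 0.22 in HCC827.

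MUC1 (ENSG00000185499, chromosome 1, positions 155185824 to 155192916, minus strand) encodes the membrane mucin that carries the CA15-3 antigen. In HCC827 its FPKM was 16.1, 14.4 and 14.3 in nc and 10.9, 12.9 and 12.7 in shSYK cells. PC-9 had 2.72, 2.53 and 2.60 in nc and 1.54, 1.26 and 1.23 in shSYK cells. EBC-1 went the other way, with 0.507, 0.403 and 0.503 in nc and 0.597, 0.743 and 1.18 in shSYK cells, on 24 to 76 reads per library. The groups did not overlap in any of the lines, but the direction differed. The shSYK mean was 81.5% of the nc mean in HCC827, 51.3% in PC-9 and 179% in EBC-1. The log2 differences were -0.28 (standard error 0.079), -0.63 (0.11) and 0.31 (0.14).

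MUC16 (ENSG00000181143, chromosome 19, positions 8848844 to 8981342, minus strand) encodes the very large membrane mucin that carries the CA125 antigen and binds mesothelin. PC-9 had 3.86, 8.68 and 5.18 FPKM in nc and 2.28, 2.40 and 1.83 in shSYK cells, so that the nc libraries differed among themselves by more than the shSYK libraries did. HCC827 had 8.62, 8.50 and 5.56 in nc against 5.92, 7.24 and 5.66, and these groups overlapped. EBC-1 was higher in every shSYK library, with 0.669, 0.708 and 0.615 in nc and 0.855, 0.841 and 0.954 in shSYK cells. The shSYK mean was 36.7% of the nc mean in PC-9, 83.0% in HCC827 and 133% in EBC-1. The log2 differences were -1.07 (standard error 0.24), -0.22 (0.16) and 0.18 (0.093). Read numbers were high for levels of this size, 318 to 4422 per library, because the gene model is 43830 bases long.

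MUC13 (ENSG00000173702, chromosome 3, positions 124905442 to 124953819, minus strand), a membrane mucin best known from the gut, was above the floor only in HCC827. Its FPKM there was 3.08, 3.41 and 3.74 in nc and 1.17, 1.10 and 1.05 in shSYK cells, on 78 to 141 and 40 to 41 reads. Both groups were tight and did not overlap, and the shSYK mean was 32.5% of the nc mean (log2 difference -1.06, standard error 0.088). EBC-1 and PC-9 libraries had at most 1 read. MUC15 (ENSG00000169550, chromosome 11, positions 26559033 to 26572233, minus strand), another membrane mucin, had 0 reads in all 12 libraries of EBC-1 and HCC827, a count that allows up to 3 reads, and at most 3 reads in a PC-9 library. No fold is given for it.

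The gel-forming mucins lie next to each other on chromosome 11 and had their highest levels in HCC827, where MUC5B was abundant and MUC5AC was near 1 FPKM in nc cells. MUC5B (ENSG00000117983, positions 1223066 to 1262172, plus strand) had 55.2, 54.0 and 49.6 FPKM in the nc libraries and 4.62, 7.46 and 10.3 in the shSYK libraries of that line. The shSYK mean was 14.1% of the nc mean, 7.09-fold lower, and the difference in log2(FPKM + 1) was -2.73 (standard error 0.22), the largest of any member in any line on that scale. By fold, MUC5B in PC-9 and MUC5AC in HCC827, both at lower levels, lay further apart. The shSYK libraries varied more than the nc libraries in relation to their mean, at 7.46 ± 2.84 against 52.9 ± 2.97. PC-9 held MUC5B at 0.605, 0.708 and 0.536 in nc and 0.0900, 0.0511 and 0.0212 in shSYK cells, 93 to 153 reads against 4 to 21. The groups did not overlap, and the shSYK mean was 8.78% of the nc mean, 11.4-fold lower. EBC-1 had 9 to 26 reads of MUC5B per library, and its groups overlapped at 0.0520 ± 0.0119 in nc and 0.0744 ± 0.0206 in shSYK cells.

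MUC5AC (ENSG00000215182, positions 1157953 to 1201138, plus strand) had 1.05, 0.922 and 1.14 FPKM in the nc libraries of HCC827 and 0.0344, 0.0593 and 0.136 in the shSYK libraries. These are 133, 189 and 215 reads against 6, 11 and 26, so the groups were far apart although the gene did not reach a mean FPKM of 1. The shSYK mean was 7.38% of the nc mean, 13.6-fold lower, while the difference on the log2(FPKM + 1) scale was -0.92 (standard error 0.084). EBC-1 and PC-9 had at most 4 reads per library. The next gene at this locus that averaged 1 FPKM or more was TOLLIP, whose product acts in Toll-like receptor signalling. Its HCC827 level was 15.9 ± 0.269 in nc and 14.8 ± 1.12 in shSYK cells (log2 difference -0.11, limma adjusted p = 0.232), and it rose in EBC-1 by 0.39 (limma adjusted p = 0.0112). TOLLIP differed by 0.19 in PC-9 (limma adjusted p = 0.622), and TOLLIP-AS1 by -0.19 in EBC-1 and 0.21 in PC-9.

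Of the 8 members, 6 were above the floor for EBC-1, 5 for PC-9 and 7 for HCC827. In EBC-1, the groups did not overlap for 2 members that lay lower and 2 that lay higher in shSYK cells, as was so for 21.9% and 22.8% of the 20762 genes above the same floor. The 5 detected members of PC-9 all lay lower without overlap, a pattern seen in 12.2% of 19061 genes above the floor, and so did 6 of 7 in HCC827, against 21.1% of 18670 genes. A mean FPKM of at least 1 was reached by 2, 4 and 6 members in EBC-1, PC-9 and HCC827. The limma threshold, an adjusted p under 0.05, was passed by 2, 3 and 5 of these, each lower in shSYK cells, against 21.6%, 1.41% and 20.7% of all genes tested. These members passed in EBC-1 as MUC4 and MUC20, in PC-9 as MUC1, MUC4 and MUC20, and in HCC827 as MUC1, MUC4, MUC13, MUC20 and MUC5B. Because the members were chosen by this contrast, nothing is read from these counts. The PC-9 count was 0 when nc library 3 or any one shSYK library was left out, settings in which 7 to 24 of all genes were called in place of 253. The EBC-1 count was 1, MUC4 alone, in 5 of the 6 fits that left out a library. Over those 6 fits, 30.2% to 50.8% of all genes were called.

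Summed over the 8 genes, the EBC-1 level was 36.5 ± 5.49 FPKM in nc and 17.5 ± 0.174 in shSYK cells. The sums were 26.5 ± 2.02 and 10.9 ± 0.572 for PC-9, and 86.2 ± 5.48 and 29.1 ± 3.98 for HCC827. The composition differed most in HCC827, where MUC5B made up 61.4% ± 0.683 of the sum in nc and 25.1% ± 6.79 in shSYK cells, and MUC1 17.3% ± 0.686 and 42.1% ± 2.44. MUC1 was the most abundant member in HCC827 shSYK cells. In PC-9 the MUC20 share was 54.5% ± 9.29 and 57.7% ± 2.35, a difference within the spread of the libraries. MUC4 was the leading member in both groups of EBC-1, with 91.6% ± 1.34 and 82.3% ± 1.87. Scaling each EBC-1 library to the same sum of FPKM moved the median of all genes by 0.11 on the log2 scale. Relative to that median, the EBC-1 difference was -1.14 for MUC4 and -0.34 for MUC20. The shSYK mean after this scaling was 197% of the nc mean for MUC1 and 146% for MUC16, both higher in every shSYK library.

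**Figure D3:**
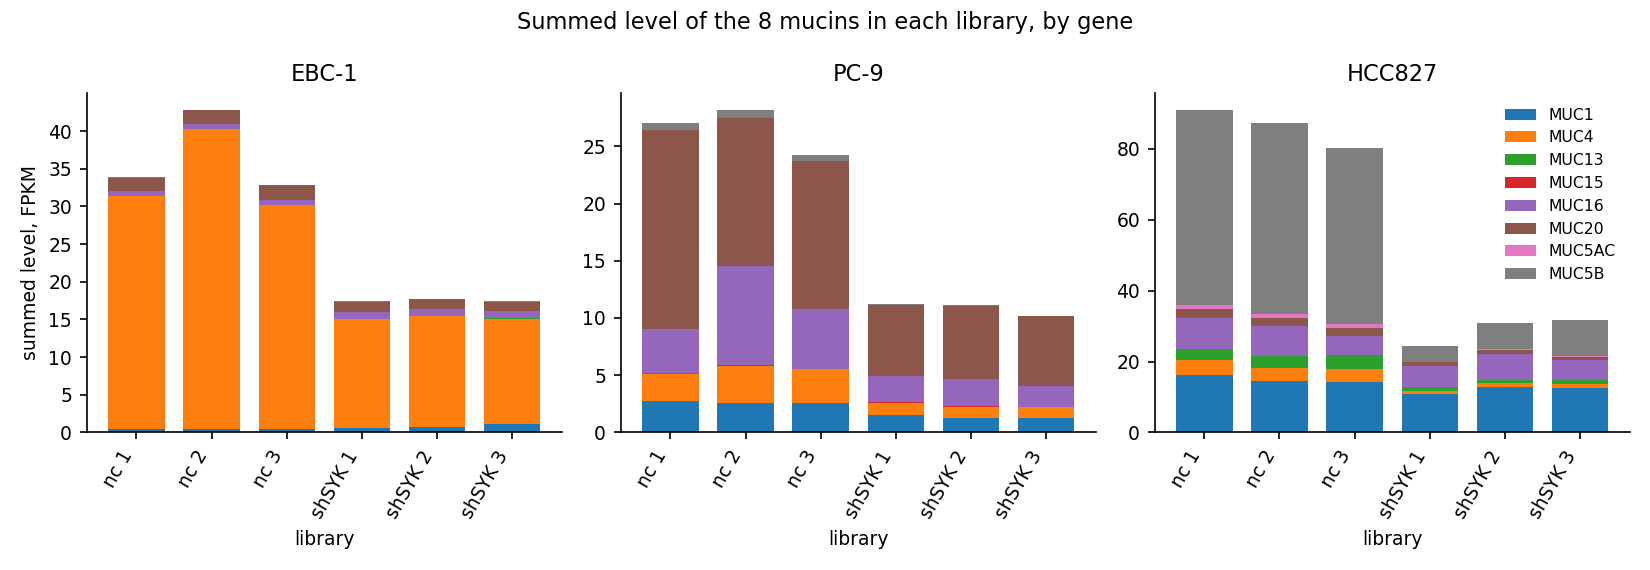
Summed FPKM of the 8 mucins in each library, as bars from 0 stacked by gene, with a separate axis for each cell line. The sum is lower in the 3 shSYK libraries of each line, and the MUC5B part of the HCC827 bars is 49.6 to 55.2 FPKM in nc and 4.62 to 10.3 FPKM in shSYK cells.

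Genes that act with mucins were taken from 6 lists with 96 genes, of other mucins, enzymes that start and extend O-linked sugar chains, genes of mucus secretion, mucin partners and sheddases, and transcription factors known at mucin promoters. The lists were written from known functions, with earlier results of these data known. In EBC-1, 53 of them were tested and 18 rose and 11 fell, 54.7% against 44.7% of all genes tested, of which 23.1% rose and 21.6% fell. Removing trends on gene length and GC content turned the split to 14 higher and 17 lower, against 2410 and 2917 of all 12430 genes. In PC-9, 56 were tested and 1 rose, 1.79% against 2.09% of all genes, of which 0.678% rose. At an unadjusted p under 0.05 limma gave 2 higher and 5 lower genes in PC-9, and limma-voom on recovered reads called 2 lower. Of all 12089 genes tested in PC-9, 1881 had an unadjusted p under 0.05, and limma-voom called 418, of which 290 were lower. In HCC827, 61 were tested and 16 rose and 28 fell, 72.1% against 38.0% of all genes, of which 17.2% rose and 20.7% fell. With the FPKM scaled to an equal sum, the HCC827 split was 18 higher and 20 lower, against 2482 and 1905 of all 11999 genes. The median log2 difference of the tested genes was 0.0018 for EBC-1, -0.0019 for PC-9 and -0.081 for HCC827, and that of all genes was 0.0090, 0.0088 and -0.0053.

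Of the enzymes that extend the sugar chains, 2 of 12 tested rose and 8 fell in HCC827, and 4 of 7 rose and 1 fell in EBC-1. The difference between the lines was not tested. GCNT3, which builds branched core structures of mucin sugars, fell in HCC827 from 2.53 ± 0.423 to 0.497 ± 0.150 (log2 difference -1.24, limma adjusted p = 0.000579), while the related branching enzyme GCNT1 rose from 0.886 ± 0.0974 to 2.10 ± 0.0446 (0.72, limma adjusted p = 0.00122). B3GNT3, which extends core chains, fell in HCC827 from 55.7 ± 5.45 to 30.6 ± 2.09 (-0.84, limma adjusted p = 0.000559) and rose in EBC-1 from 28.4 ± 3.18 to 43.5 ± 1.11 (0.60, limma adjusted p = 0.00184). C1GALT1, the core 1 synthase, rose in EBC-1 by 0.63 (limma adjusted p = 0.00170), and this call was lost when trends on gene length and GC content were removed (limma adjusted p = 0.0766). C1GALT1 also rose in HCC827 by 0.33 (limma adjusted p = 0.00796) and differed by 0.0076 in PC-9 (limma adjusted p = 0.993). Of the GALNT enzymes, which attach the first sugar, 3 of 10 rose and 2 fell in EBC-1, and 4 of 10 rose and 3 fell in HCC827. GALNT3 rose in EBC-1 from 8.27 ± 0.900 to 14.4 ± 1.46 (0.73, limma adjusted p = 0.00142), and GALNT7 rose in HCC827 from 10.9 ± 0.290 to 16.2 ± 1.27 (0.53, limma adjusted p = 0.00132). GALNT3 also rose in HCC827 by 0.32 (limma adjusted p = 0.0112), and GALNT7 differed in EBC-1 by 0.20 (limma adjusted p = 0.101). None of the 19 enzymes tested in PC-9 passed, of which 1 was higher at an unadjusted p under 0.05, and limma-voom called 0. Of all 12089 genes tested in PC-9, 1881 had such an unadjusted p and limma-voom called 418.

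Among genes of mucus secretion, 3 of 11 rose and 4 fell in EBC-1, and 1 of 11 rose and 5 fell in HCC827. AGR2, an endoplasmic reticulum protein needed to fold gel-forming mucins, fell in EBC-1 from 50.2 ± 19.9 to 27.0 ± 1.32 (-0.80, limma adjusted p = 0.0240) and in HCC827 from 27.3 ± 0.186 to 13.6 ± 2.74 (-0.97, limma adjusted p = 0.00157). In PC-9 AGR2 was 15.0 in nc and 10.04 in shSYK cells (-0.55, limma adjusted p = 0.0724). The AGR2 call in EBC-1 was lost without shSYK library 1 or 3 or with no filter, with an adjusted p of up to 0.0914. XBP1, a factor of the secretory apparatus, fell in EBC-1 (log2 difference -0.92, limma adjusted p = 0.000106), and FCGBP, a protein of mucus, fell there from 58.8 ± 5.01 to 27.1 ± 7.47 (-1.12, limma adjusted p = 0.00332). XBP1 also fell in HCC827 (-0.66, limma adjusted p = 0.0126) and differed by 0.08 in PC-9 (limma adjusted p = 0.849). FCGBP was too low to be tested in HCC827, with means of 0.665 in nc and 0.153 in shSYK cells and no overlap. Its PC-9 groups overlapped near 0.1 FPKM. RAB27A and SYTL2, which dock secretory granules, rose in EBC-1 by 0.90 (limma adjusted p = 0.000364) and 0.61 (limma adjusted p = 0.00585), and SYTL2 rose in HCC827 by 0.60 (limma adjusted p = 0.00728). Its EBC-1 call was lost with these trends removed (limma adjusted p = 0.0550). TFF1, a trefoil peptide secreted with mucus, rose in PC-9 from 1.02 ± 0.130 to 2.38 ± 0.449 (0.74, limma adjusted p = 0.0450). The TFF1 call was lost in 7 of 15 alternatives, among them nc library 3 or any shSYK library left out, with an adjusted p of up to 0.229.

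Of the transcription factors, 4 of 14 rose and 3 fell in EBC-1, and 5 of 17 rose and 8 fell in HCC827. SPDEF, which drives goblet cell differentiation, fell in HCC827 from 17.4 ± 1.86 to 5.95 ± 1.91 (-1.43, limma adjusted p = 0.00118). The SPDEF groups did not overlap in the other lines either. PC-9 had means of 13.2 in nc and 6.64 in shSYK cells (-0.86, limma adjusted p = 0.0843). EBC-1 had 1.16 and 0.407 and was not tested. GATA6 rose in HCC827 by 0.50 (limma adjusted p = 0.00686), and FOSL1, which encodes FRA1, rose from 178 ± 13.5 to 236 ± 17.5 (0.41, limma adjusted p = 0.00666). The FOSL1 call was lost in a fit of all 18 libraries (limma adjusted p = 0.0672), and FOSL1 differed by -0.13 in EBC-1 (limma adjusted p = 0.406) and 0.27 in PC-9 (limma adjusted p = 0.592), where the groups overlapped. FOXA2 fell in EBC-1 from 21.5 ± 2.93 to 8.71 ± 1.796 (-1.22, limma adjusted p = 0.00103). It was too low to be tested in HCC827, with means of 0.985 in nc and 0.585 in shSYK cells and no overlap. The FOXA2 groups of PC-9 overlapped. None of the 15 factors tested in PC-9 passed, with 2 lower at an unadjusted p under 0.05 and 1 lower by limma-voom. Of the mucin partners and sheddases, 3 of 10 rose and 1 fell in EBC-1, and 3 of 9 rose and 4 fell in HCC827. None of 10 passed in PC-9, where 2 were lower at an unadjusted p under 0.05 and limma-voom called 1 lower. For both lists, the PC-9 counts over all 12089 genes were 1881 at an unadjusted p under 0.05, in either direction, and 290 lower by limma-voom. The kinase SRC fell in EBC-1 from 9.97 ± 1.43 to 4.12 ± 0.408 (-1.09, limma adjusted p = 0.000500). SRC also fell in HCC827 (-0.54, limma adjusted p = 0.00104) and differed by -0.05 in PC-9 (limma adjusted p = 0.911).

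Of the 14 other mucin genes, few were expressed. CD164, a small sialomucin, was tested in each line and was named after its values were seen, with differences of 0.38 in EBC-1 (limma adjusted p = 0.0268), 0.07 in PC-9 (limma adjusted p = 0.926) and 0.19 in HCC827 (limma adjusted p = 0.0378). OVGP1 was tested in HCC827 only, with a difference of -0.01 (limma adjusted p = 0.937).

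**Figure D4:**
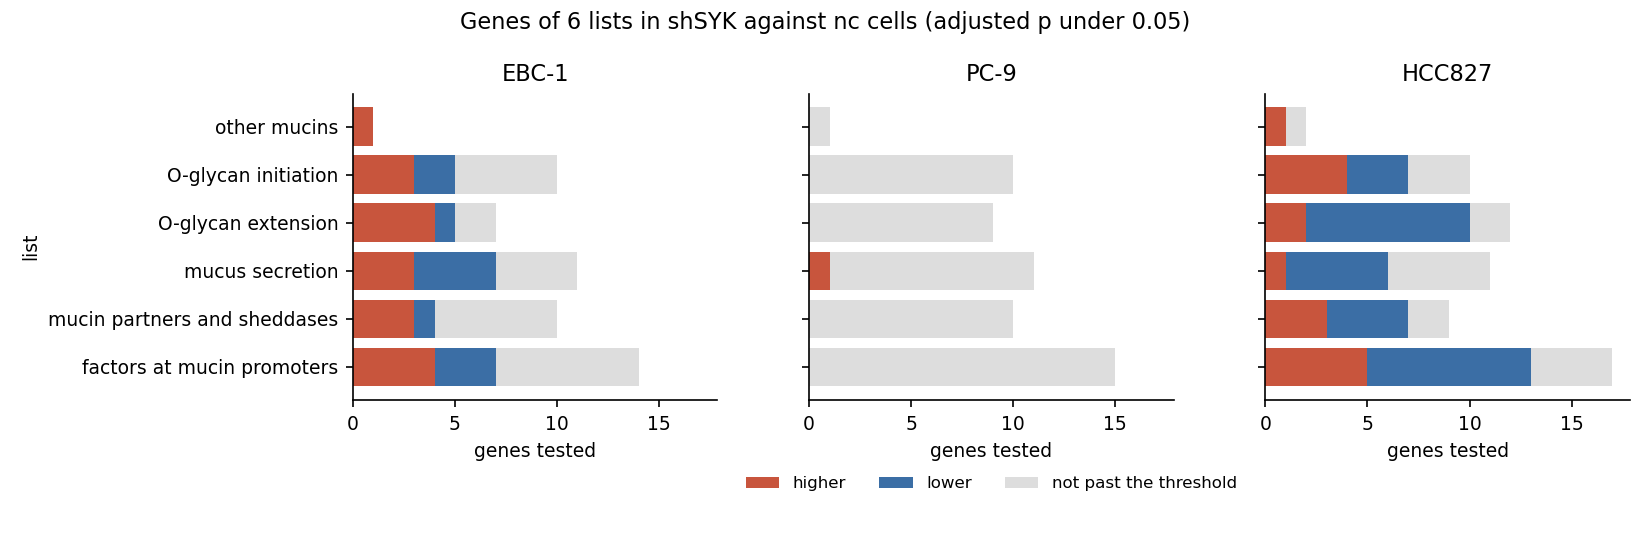
Number of genes tested in each of the 6 lists in EBC-1, PC-9 and HCC827, as bars split into genes higher in shSYK cells, lower in shSYK cells and not past an adjusted p under 0.05. In PC-9, 1 gene of mucus secretion passed, while in HCC827 8 of 12 extension enzymes and 8 of 17 factors were lower.

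The genes most like MUC4 were sought over the 18 libraries by Pearson's r of log2(FPKM + 1) among the 12672 genes that averaged 1 FPKM or more. These libraries share 3 cell lines and 1 contrast, so r is a description and not a test. With the mean of each line subtracted, the closest genes were BMF (r = 0.97), TRIM31 (0.96), DNAH2 (0.95), IL10RB (0.95) and TCEA3 (0.95). BMF, a pro-apoptotic BH3-only protein, had means of 17.9 and 7.99 FPKM in nc and shSYK cells of EBC-1, 6.23 and 2.82 in PC-9 and 15.6 and 4.73 in HCC827. TRIM31, a ubiquitin ligase, had 1.83 and 0.368, 8.65 and 3.66, and 13.4 and 3.78 in the same order. For these 5 genes, the shSYK libraries all lay under the nc libraries in the 3 lines. They were picked for following MUC4, itself selected as lower in shSYK cells, so nothing is read from this. Among the members that reached this mean, MUC20 ranked 305th with r = 0.82, MUC5B 693rd with 0.75, MUC16 2935th with 0.46 and MUC1 3708th with 0.36. MUC5B reached the mean only through HCC827, where it was high in nc cells, so nothing is read from its r. Without that subtraction, which lets the high level of EBC-1 weigh in, the closest genes were PHF12 (r = 0.98), EPB41 (0.98), DIRC2 (0.98), PVR (0.97) and MAN2C1 (0.97), and MUC20 had r = -0.36. PVR, an adhesion molecule, had means of 120 and 70.5 FPKM in nc and shSYK cells of EBC-1, 31.7 and 28.1 in PC-9 and 45.1 and 28.2 in HCC827.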

How the data were processed

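RNA-seq of 18 libraries was used, 3 in each of 6 groups taken from the labels. RNA was extracted with TRIzol. The authors deposited FPKM per gene, made from reads aligned to hg38 per the paper's methods. The submitters' processing notes list CASAVA and HISAT2 with no role and both hg38 and hg19, and the counting program, its handling of reads that fit several places and its strand setting are not given in the sources used here. Multiplied by gene length, the FPKM of a library are multiples of 1 value, and dividing by it gave whole reads (tolerance 0.05) for 100% of values above 0, between 7920099 and 15729103 per library. They were used for depth, counting error, the floor of detection and the limma-voom alternative, and not in the main fit.

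Differences were fitted with limma 3.58.1 in R 4.3.3 on log2(FPKM + 1), with a variance trend, for genes averaging 1 FPKM or more in the libraries fitted, and adjusted by Benjamini-Hochberg over all genes tested at 0.05. For members under that mean, differences come from the fit with no filter. The script was tested on simulated data. The members and the lists were chosen with earlier results of these data known. Named are the members, SYK, the 5 largest rises and falls among listed genes past the threshold in each line, the 5 genes most like MUC4 by each measure, genes within 100 kb of MUC4 or of MUC5AC and MUC5B, and markers the check of a line turns on. A listed gene that this rule names in HCC827 is not reported here. Alternatives were a pseudocount of 0.1, no filter or a mean FPKM of 5, equal sums (TPM), quantile normalization, no variance trend, limma-voom on recovered reads, removal of length and GC trends, all 18 libraries in 1 fit, a replicate block, a change of at least 1 on the log2 scale, and each library left out. Repeats came from GENCODE release 44 and hg38, and the units read there lay inside the gene positions of the tables. Promoters were taken from RefSeq (GRCh38.p14). Python 3.11.15 and matplotlib 3.10.9 were used.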

Additional observations from a re-analysis of the deposited data

Results flagged for a closer look

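The shSYK minus nc difference went in opposite directions in a pair of cell lines, with every shSYK library on its own side of the nc libraries, for 5 genes. For MUC1, the log2 difference was 0.31 in EBC-1 against -0.63 in PC-9 and -0.28 in HCC827, so the lines lay apart by 0.94 and by 0.59. MUC16 had 0.18 in EBC-1 and -1.07 in PC-9, which lay apart by 1.25. B3GNT3 had 0.60 in EBC-1 and -0.84 in HCC827, apart by 1.44, and GATA6 had 0.50 in HCC827 and -0.35 in EBC-1, apart by 0.85. SYTL2 had 0.61 in EBC-1 and 0.60 in HCC827 against -0.34 in PC-9, apart by 0.95 and by 0.94. The difference between cell lines was not tested for any of these genes, and the EBC-1 values of MUC1 rest on 24 to 76 reads per library.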

How the results depend on the processing

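In EBC-1, 2 members passed the threshold, and 1 did without a filter, with a filter at 5 FPKM, equal sums, removal of length and GC trends, a replicate block or a log2 change of at least 1, and 1 to 2 with a library left out. Of all EBC-1 genes, 44.7% were called in the main fit, 14.7% with no filter and 52.3% with a filter at 5. The share was 47.6% with equal sums, 42.9% without length and GC trends, 34.8% with a replicate block and 30.2% to 50.8% with a library left out. The PC-9 count of 3 became 0 with no filter, 1 with a filter at 5, 1 with a log2 change of at least 1, and 0 to 4 with a library left out. Of all PC-9 genes, 2.09% were called in the main fit, 0.165% with no filter, 2.49% with a filter at 5 and 0.0578% to 5.10% with a library left out. In HCC827 the count of 5 became 2 with a filter at 5 and 3 with a log2 change of at least 1, and 4 to 6 with a library left out. Of all HCC827 genes, 38.0% were called in the main fit, 48.7% with a filter at 5 and 28.1% to 32.9% with a library left out. No share of all genes is given here for a log2 change of at least 1. A filter at 5 tests fewer members, 1, 1 and 3 in the lines. Of the 96 related genes, the EBC-1 count of 29 became 3 and the HCC827 count of 44 became 3 with a log2 change of at least 1. The HCC827 count was 26 with length and GC trends removed, where 30.4% of all genes were called. The ranges with a library left out were 21 to 37 in EBC-1 and 34 to 41 in HCC827. The PC-9 count of 1 became 0 with no filter, a filter at 5, a replicate block or a log2 change of at least 1, 4 with equal sums, 3 with quantile normalization, 2 with limma-voom, 8 without length and GC trends, 5 in the fit of all 18 libraries, and 0 to 4 with a library left out. Of all PC-9 genes, 1.42% were called with a replicate block, 4.06% with equal sums, 4.045% with quantile normalization and 3.46% with limma-voom. The share was 8.50% without length and GC trends and 12.5% in the fit of all 18 libraries. In nc cells the 5 members past the threshold became 3 between EBC-1 and HCC827 with a filter at 5, and 3 to 6 between PC-9 and HCC827 with a library left out. SYK kept its direction in each alternative and lost its call in PC-9 only without shSYK library 1 (log2 difference -1.33, limma adjusted p = 0.0648), with a range of -1.35 to -1.18 over libraries left out. Levels of MUC13 in EBC-1 and PC-9 nc cells, at most 1 read, changed sign to 0.16 without length and GC trends and ranged from -0.025 to 0 with a library left out. The cause of these changes was not tested.

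No member that was fitted in a line changed the sign of its shSYK minus nc difference under any alternative. MUC4 ranged from -1.23 to -1.02 for EBC-1, -1.54 to -0.86 for PC-9 and -2.14 to -1.31 for HCC827, and MUC5B in HCC827 from -2.97 to -2.46. MUC20 in EBC-1 ranged from -0.51 to -0.12. Of 185 such values, 169 moved by less than the SD between replicates and 16 by more. Of all genes called in EBC-1, 51.7% were higher in shSYK cells, and 67.9% with equal sums, and in HCC827 45.4% and 56.6%. Same-numbered libraries did not deviate together, with correlations of their deviations between -0.22 and 0.33, so the numbers were not taken as pairs, and the replicate block moved the number of all genes called to 4326 for EBC-1, 172 for PC-9 and 4111 for HCC827, from 5562, 253 and 4554. Only in PC-9 library 2 and HCC827 library 2 did a library correlate best with its own number.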
